A study of Mus musculus with 3 samples.

Results

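Genes that decide between cell survival and programmed cell death were examined in a pool of glomerular cells of the mouse kidney. The set of 44 genes was a given list of symbols: the Bcl2 family, the caspases with their adaptors and inhibitors, p53 with its regulators, and a few further regulators. All 44 were matched by symbol to a row of the deposited table of 39304 rows. The cells came from glomeruli, the kidney's filters, of 1 wild-type male C57BL/6 mouse at 8 weeks of age. Captured on a Fluidigm C1 microfluidic chip, single cells were lysed one by one, and qPCR of marker genes gave each its identity. Amplified cDNA of 15 mesangial cells, which hold the capillary loops together, and 15 endothelial cells, which line them, was pooled and split into 3 aliquots for sequencing. There is 1 group and no treatment. Every SD below is over the 3 aliquots (n = 3) and measures library construction and sequencing only, not the spread between cells or mice. Which of the mixed cell types made a transcript cannot be told, nor can few cells with much of it be told from many cells with little.

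Apoptosis through the mitochondrion is controlled by the Bcl2 family. Survival members such as BCL2, BCL-XL and MCL1 hold back the effectors BAX and BAK, which open the outer mitochondrial membrane, and the small BH3-only proteins relieve that restraint. Proteins then released from mitochondria assemble the APAF1 apoptosome, which activates caspase 9, while death receptors activate caspase 8 through the adaptor FADD. Inhibitor of apoptosis proteins and the caspase 8 homologue FLIP act as brakes on the caspases. Much of this control acts on proteins, and genes such as Bcl2l1, Mcl1, Casp9 and Bcl2l11 make isoforms of different or opposed function that a value per gene does not separate.

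Values are FPKM, read numbers scaled to 1000 bases of a gene and 1000000 reads of its library, so they compare genes per length. The library totals behind them, recovered from the steps between low values, were 9141422, 10427635 and 10976563 reads in aliquots 1, 2 and 3. A gene is called detected here when it reached 1 FPKM in every aliquot. The table lists 71.7% of all rows and 54.6% of protein-coding rows at 0 in every aliquot, so a value of 0 is given as listed and not as absence of the transcript. Of the marker lists, 7 of 7 mesangial and 8 of 8 endothelial genes were detected, and 6 of 7 podocyte genes were too, with sums of 302 to 320.4 FPKM over the aliquots against 8601 to 9044 and 2577 to 2634 FPKM. Of 7 macrophage genes only Fcer1g was detected (sums of 66.1 to 69.5 FPKM), with Ptprc, Cd68, Adgre1 and Csf1r listed at 0. None of 5 lymphocyte genes (sums of 0 to 0.191 FPKM, Cd3e at 0) and none of 5 tubule genes (all at 0) was detected. The part of podocyte RNA in the levels that follow was not tested.

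Of the 44 genes, 27 were detected (61.4%), 8 had reads but stayed below the limit in at least 1 aliquot, and 9 were listed at 0. Among all rows 21.7% were detected, and among protein-coding rows 36.4%. The members' median level was 7.20 FPKM, against 0 for all rows and for protein-coding rows. Among detected genes alone the medians were 48.4 FPKM for the members and 20.96 FPKM for protein-coding genes. At least 100 FPKM was reached by 9 of the 44 members, against 1133 of 21303 protein-coding rows (5.32%). Together the members took 0.425% of all reads.

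**Figure D1:**
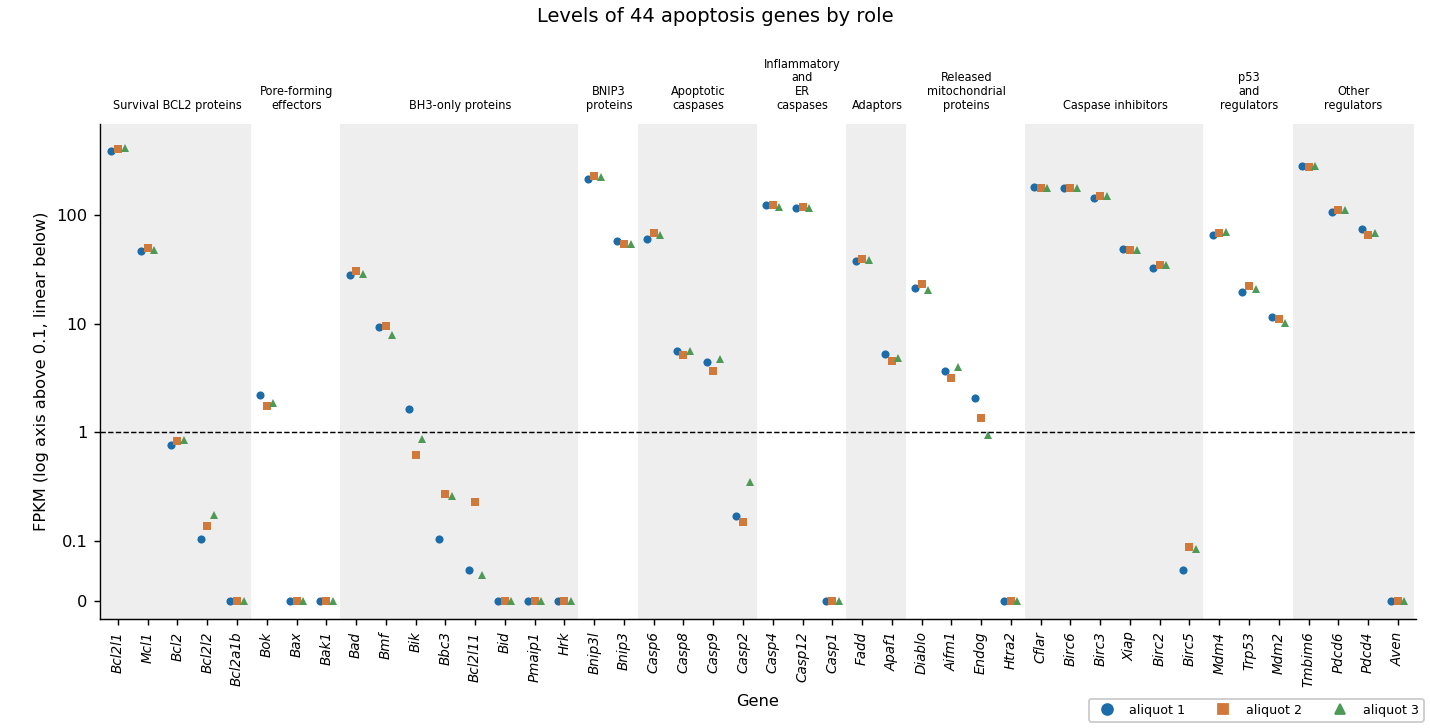
FPKM of each of the 44 genes (horizontal axis, grouped by role) in aliquots 1, 2 and 3 (circles, squares, triangles); the vertical axis is logarithmic above 0.1 and linear below, and the dashed line marks 1 FPKM. Bcl2l1 stands highest at 394 to 415 FPKM, 9 genes lie at 0 and the aliquots of each detected gene lie close together.

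Promoter sequences are shown for 4 genes that stand at the ends of the range: the highest survival gene (Bcl2l1), the highest BH3-only gene (Bad), an effector listed at 0 (Bax) and a caspase listed at 0 (Casp1). They were taken as examples after the values were seen, among genes whose window holds no annotated exon. Each window covers the 250 bases before the outermost RefSeq start, on build GRCm38.p6, written 5′ to 3′ on the gene's strand, with motif matches on either strand in capitals.
Bcl2l1, chr2:152831729-152831978, minus strand: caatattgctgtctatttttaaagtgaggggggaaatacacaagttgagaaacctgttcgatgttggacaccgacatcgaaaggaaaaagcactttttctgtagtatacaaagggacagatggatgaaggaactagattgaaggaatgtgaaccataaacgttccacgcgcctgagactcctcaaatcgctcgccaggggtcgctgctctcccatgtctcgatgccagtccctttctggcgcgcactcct
Bad, chr19:6941611-6941860, plus strand: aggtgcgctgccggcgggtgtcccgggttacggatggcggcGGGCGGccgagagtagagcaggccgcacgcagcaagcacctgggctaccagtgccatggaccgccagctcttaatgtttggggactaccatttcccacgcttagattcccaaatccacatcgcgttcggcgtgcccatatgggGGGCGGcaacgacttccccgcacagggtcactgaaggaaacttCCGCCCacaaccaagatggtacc
Bax, chr7:45466899-45467148, minus strand: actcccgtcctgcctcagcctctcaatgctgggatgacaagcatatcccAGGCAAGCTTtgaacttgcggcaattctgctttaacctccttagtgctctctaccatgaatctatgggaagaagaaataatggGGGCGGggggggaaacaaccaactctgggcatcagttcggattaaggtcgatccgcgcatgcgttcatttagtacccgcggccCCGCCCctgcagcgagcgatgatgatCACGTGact
Casp1, chr9:5298267-5298516, plus strand: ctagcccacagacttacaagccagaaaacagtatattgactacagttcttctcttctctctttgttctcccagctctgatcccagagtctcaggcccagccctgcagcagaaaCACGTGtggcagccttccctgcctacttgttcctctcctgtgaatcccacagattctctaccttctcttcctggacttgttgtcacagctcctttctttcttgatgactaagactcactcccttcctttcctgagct
The motifs searched, on both strands, were the TATA box spelled TATAAA, the box named CCAAT after its letters, the GC box spelled GGGCGG, and ACGTG as the core of the hypoxia response element. The NF-kappaB site and the p53 half-site were searched as well. The Bcl2l1 window, of the gene with the highest level, held none of them. The Bad window held 3 GC boxes. The Bax window held 2 GC boxes, 1 p53 half-site beginning 201 bases before the start, and a CACGTG run that matches ACGTG on both strands. The Casp1 window held that run as well and only 1 CpG, against 14 in the Bax window, 12 in the Bcl2l1 window and 21 in the Bad window. Over the 39 members with a window, 64.1% held a GC box, against 33.0% of all 27025 genes with a window, which were not restricted to rows of the deposited table. The median number of CpG was 16, against 6 for all genes, and the median GC content 60.4% against 52.0%. The CCAAT box was found in 28.2% against 34.5%, TATAAA in 5.13% against 13.0%, and ACGTG in 17.9% against 16.5%. An NF-kappaB site was found in 10.3% against 3.74%, that is in 4 members: Aifm1, Bbc3, Birc5 and Casp4. A p53 half-site was found in 10.3% against 7.16%, in Bax, Birc5, Mdm2 and Trp53. Detected members (25 with a window) had a median of 12 CpG, and members listed at 0 (7 with a window) a median of 14. These matches describe letters in the windows and are not binding sites.

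The survival side of the Bcl2 family rested on a pair of genes. Bcl2l1 (ENSMUSG00000007659, chromosome 2, 152780668 to 152831728, minus strand, GRCm38), which encodes BCL-XL, had 394, 409 and 415 FPKM in aliquots 1, 2 and 3, a mean of 406 ± 10.8 FPKM (233 FPKM when rescaled to its longest transcript). That level lies above 98.2% of all genes above 0 and is the highest of the 44. Mcl1 (ENSMUSG00000038612, chromosome 3, 95658788 to 95663176, plus strand), a short-lived survival protein, had 46.5, 50.5 and 48.2 FPKM. The level of Bcl2l1 was 8.39 times that of Mcl1, a log2 ratio of Mcl1 over Bcl2l1 of -3.07 ± 0.05, and the ranges of the aliquots did not overlap.

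Bcl2, the founding member, stayed below the limit at 0.761, 0.827 and 0.849 FPKM. Its length of 7191 bases makes this 179 reads in all, so the low level rests on many reads. Bcl2l2, which encodes BCL-W, had 0.104, 0.137 and 0.173 FPKM from 9 reads in all. Bcl2a1b, a survival gene known from blood cells, was listed at 0. It has near-identical copies, so reads that fit several copies could be missing from it. Bcl2l1 made up 89.2% of the summed level of the 5 survival genes, which was 442, 460.0 and 464 FPKM.

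The effectors were listed at 0 or low. Bax (ENSMUSG00000003873, chromosome 7, 45461697 to 45466898, minus strand) and Bak1 (ENSMUSG00000057789, chromosome 17, 27019810 to 27029009, minus strand) were listed at 0 in each aliquot, so no ratio to a survival gene is given for either. Bok, the relative of BAX and BAK that is known to be held in check by protein degradation, was the only effector detected. Its values were 2.22, 1.74 and 1.84 FPKM, from 84 reads in all.

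Of the 8 BH3-only genes 2 were detected. Bad, a sensitizer whose protein is inactivated by phosphorylation downstream of growth factors, had 28.4, 30.8 and 28.9 FPKM. Bmf, known to respond to changes of the cytoskeleton and of cell attachment, had 9.42, 9.51 and 7.91 FPKM. Both genes lay above the remaining BH3-only genes in every aliquot. The values imply a length of 451 bases for Bad, against 1533 for its longest transcript, and rescaled to that transcript its mean was 8.64 FPKM and that of Bmf 2.66 FPKM.

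Bik had 1.62, 0.610 and 0.869 FPKM from 29 reads and crossed the limit in aliquot 1 only. Bbc3, the p53 target PUMA, had 0.103, 0.271 and 0.258 FPKM from 7 reads. Bcl2l11, which encodes BIM, had 0.0514, 0.225 and 0.0428 FPKM from 7 reads, 5 of them in aliquot 2. At these read numbers levels are uncertain, and differences between the aliquots or among the low genes were not tested. Bid, which links caspase 8 to mitochondria, Pmaip1, which encodes NOXA, and Hrk were listed at 0.

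Set as sums, survival genes stood above the death genes compared here, the effectors and BH3-only genes, in each aliquot. Bnip3 and Bnip3l were kept as a group of their own and enter neither side, with a sum of 279.7 ± 3.53 FPKM. Counting them as death genes would lower the ratios, and this was not done. The survival sum of 455 ± 12.1 FPKM was 10.9 times the summed effectors and BH3-only genes (41.6 ± 1.70 FPKM), with log2 ratios of 3.40, 3.41 and 3.54 in aliquots 1, 2 and 3. Against the BH3-only genes alone (39.7 ± 1.74 FPKM) the log2 ratio was 3.52 ± 0.08. Against the effectors it was 7.89 ± 0.22, where the effector sum of 1.93 ± 0.249 FPKM is Bok alone. Genes listed at 0 enter these sums as 0: Bax, Bak1, Bid, Pmaip1 and Hrk among the death genes, and Bcl2a1b among the survival genes. Since a listed 0 is not absence, the size of these ratios is uncertain. The sums also follow a few genes. Without Bcl2l1 and Bad, the highest member of each side, the log2 ratio to both sets of death genes was 2.02. Taken as medians with 1 FPKM added it was 0.72, but these medians are Bcl2 and Bcl2l11, both below the detection limit. The median ratio therefore says little about the balance. The ratios set different genes side by side and were not tested, since genes are not replicates and the aliquots share 1 pool.

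**Figure D2:**
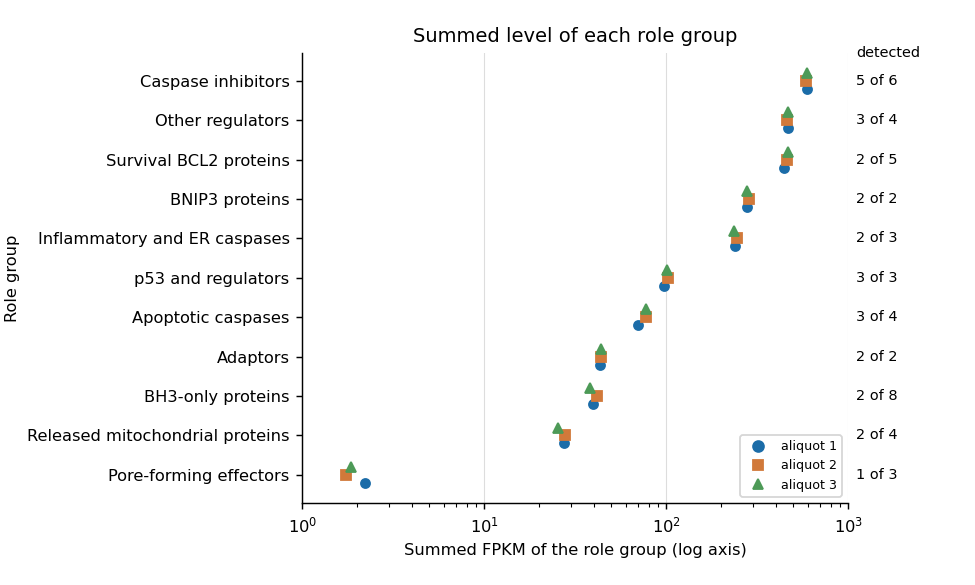
Summed FPKM of each of the 11 role groups (rows, logarithmic horizontal axis) in aliquots 1, 2 and 3, with the number of detected members at the right. Caspase inhibitors stand highest as deposited at 589 to 592 FPKM (at 225 FPKM, below 2 other groups, after rescaling to the longest transcript), and the effectors lowest at 1.74 to 2.22 FPKM, all of it Bok.

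Bnip3 and Bnip3l encode outer mitochondrial membrane proteins best known as receptors that mark mitochondria for removal by autophagy. Bnip3l (NIX) had 219, 229 and 225 FPKM. Bnip3 had 57.7, 54.6 and 53.9 FPKM. Bnip3l was 4.05 times higher, with a log2 ratio of 2.02 ± 0.08 and no overlap between the ranges.

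Caspases were uneven. Casp6, an executioner caspase known for cleaving nuclear lamins, led the apoptotic ones with 60.3, 68.9 and 66.3 FPKM, or a mean of 14.4 FPKM when rescaled to its longest transcript. The initiators were lower: Casp8 had 5.56, 5.18 and 5.61 FPKM, and Casp9 had 4.40, 3.67 and 4.71 FPKM. Casp9 was below Casp8 in each aliquot, with a log2 ratio of -0.36 ± 0.12, and the highest Casp9 value lay below the lowest of Casp8. Casp2, an initiator linked to genome damage, had 0.168, 0.147 and 0.349 FPKM from 9 reads.

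Of the 3 caspases of inflammation and of endoplasmic reticulum stress, Casp4 and Casp12 were higher than the apoptotic initiators. Casp4, the sensor of intracellular lipopolysaccharide also called caspase 11 in the mouse, had 124, 124 and 119.8 FPKM. Casp12, a caspase of the endoplasmic reticulum, had 116, 119.8 and 116 FPKM. Casp1, the inflammasome caspase that activates interleukin 1 beta, was listed at 0. These genes follow each other on the plus strand of chromosome 9 (GRCm38), Casp1 at 5298517 to 5307265, Casp4 at 5308828 to 5336783 and Casp12 at 5345430 to 5373032. Gaps of 1562 and 8646 bases separate them, with no annotated gene between. Casp1, listed at 0, is thus followed by Casp4 and then Casp12, which lie above 91.5% and 91.1% of all genes above 0.

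The adaptors of both routes were detected. Fadd, which joins death receptors to caspase 8, had 37.9, 39.5 and 38.9 FPKM. Apaf1, the scaffold of the apoptosome, had 5.23, 4.49 and 4.78 FPKM. Fadd was 7.12 times the level of Casp8 (log2 ratio of Casp8 over Fadd -2.83 ± 0.09). Apaf1 and Casp9 were not separated: their log2 ratio of 0.19 ± 0.15 came with overlapping ranges.

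Among proteins released from mitochondria, Diablo, which encodes the inhibitor antagonist SMAC, had 21.6, 23.4 and 20.5 FPKM. Aifm1, the apoptosis-inducing factor, a flavoprotein that also supports the respiratory chain, had 3.65, 3.15 and 3.97 FPKM. Endog, a mitochondrial nuclease, had 2.06, 1.35 and 0.943 FPKM from 46 reads and missed the limit in aliquot 3. Htra2, the mitochondrial protease OMI, was listed at 0.

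Inhibitors of caspases formed the group with the highest sum as deposited, 590.4 ± 1.49 FPKM. That rank depends on gene length: with levels rescaled to the longest transcript, a setting added after seeing the data, their sum was 225 ± 0.730 FPKM, below the survival genes at 264 ± 7.05 FPKM and the group of Tmbim6, Pdcd6, Pdcd4 and Aven at 309 ± 2.57 FPKM. Cflar, which encodes FLIP, had 184, 177 and 180.0 FPKM. Birc6 (BRUCE), a very large ubiquitin ligase, had 181, 177 and 177 FPKM and the most reads of all members, 27805. Birc3 (cIAP2) had 145, 152 and 150.0 FPKM and its neighbour Birc2 (cIAP1), both ubiquitin ligases of TNF receptor signalling, 32.9, 35.0 and 34.8 FPKM. Xiap, a direct inhibitor of caspases, had 49.3, 47.5 and 48.4 FPKM.

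Birc5, which encodes survivin and is tied to cell division, was the exception with 0.0511, 0.0896 and 0.0851 FPKM from 5 reads. The sum of the inhibitors was 7.87 times that of the 4 apoptotic caspases (75.1 ± 4.09 FPKM), a log2 ratio of 2.98 ± 0.08. Casp6 carried 86.8% of that caspase sum, and without the highest member of each group the log2 ratio was 5.37.

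Single brakes were set against what they act on. Cflar was 33.1 times the level of Casp8, a log2 ratio of 5.05 ± 0.05, the largest of the 11 pairs with both genes detected. On chromosome 1 the 2 genes are neighbours among protein-coding genes, with 1 other annotated gene between them. Cflar lies at 58711508 to 58758884 and Casp8 at 58795374 to 58847503, both on the plus strand and 36489 bases apart. Xiap was 11.4 times the level of Casp9 (log2 ratio 3.51 ± 0.17) and 2.22 times that of its antagonist Diablo (1.15 ± 0.11). Birc2 lay below Birc3 by a log2 ratio of -2.12 ± 0.02. They are neighbours on the minus strand of chromosome 9, at 7818227 to 7837064 and 7848699 to 7873186, 11634 bases apart.

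The size of these ratios depends on gene length, which the table does not state. With each level rescaled to the longest annotated transcript, the log2 ratio of Cflar over Casp8 was 3.13 and that of Birc2 over Birc3 -0.93, while Xiap over Casp9 became 4.02, then the largest of the 11, and Casp9 over Casp8 -1.63.

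**Figure D3:**
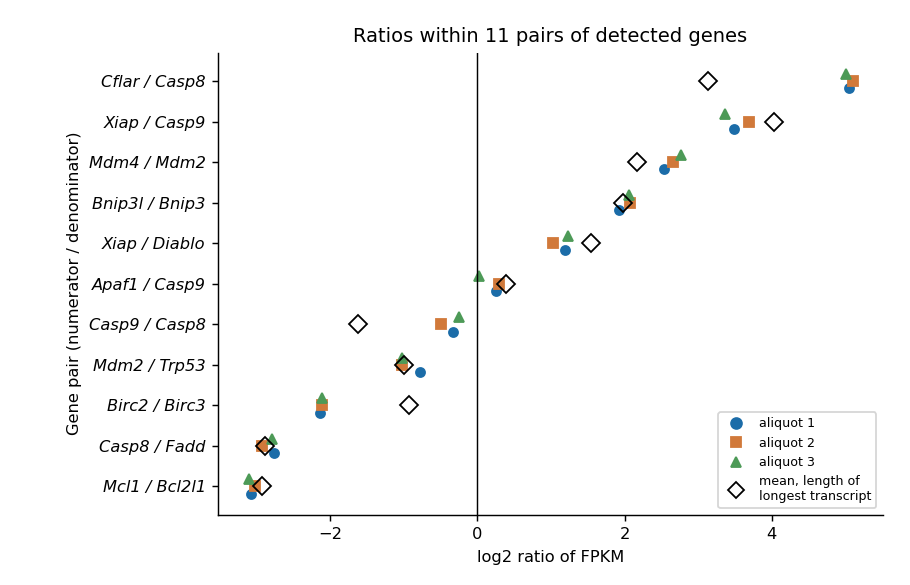
Log2 ratio of FPKM (horizontal axis) for the 11 gene pairs with both genes detected, in aliquots 1, 2 and 3, with the mean after rescaling to the longest transcript as open diamonds. No pair changes side of 0 after rescaling. In the aliquots Cflar over Casp8 is highest (Xiap over Casp9 after rescaling), Mcl1 over Bcl2l1 lowest and Apaf1 over Casp9 lies closest to 0.

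The p53 gene and both of its main regulators were detected. Trp53 had 19.7, 22.3 and 20.9 FPKM. Mdm2, the ubiquitin ligase that degrades p53 and is itself a p53 target, had 11.4, 10.9 and 10.2 FPKM. Mdm4, a relative that blocks p53 without degrading it, had 66.2, 69.3 and 69.6 FPKM. Mdm2 lay below Trp53 in each aliquot (log2 ratio -0.95 ± 0.14), and Mdm4 was 6.29 times the level of Mdm2 (log2 ratio 2.65 ± 0.12).

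Of the last 4 genes, Tmbim6, which encodes the endoplasmic reticulum protein Bax inhibitor 1, had 287, 282 and 286 FPKM and ranked second of the 44. Pdcd6, the calcium-binding protein ALG-2, had 107, 113 and 113 FPKM. Pdcd4, an inhibitor of translation, had 74.4, 65.8 and 68.4 FPKM. Aven, whose protein is known for its binding to BCL-XL and APAF1, was listed at 0.

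Overlap with other genes was looked up for the genes listed at 0. Of these 9 genes, 6 share exon bases with another annotated gene on either strand (Bcl2a1b 49.1%, Htra2 43.7%, Bak1 25.5%, Aven 18.3%, Bid 17.7% and Bax 12.2% of their exon bases), while Casp1, Hrk and Pmaip1 share none. Of the 35 members above 0, 9 share some, among them Diablo with 40.9% at 21.8 FPKM. Over all protein-coding rows the order was the other way: 23.0% of those listed at 0 and 37.1% of those above 0 share exon bases. Whether reads were counted by strand is not stated, and the part of overlapping genes in the zeros was not tested.

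The aliquots agreed closely for the detected members. Their coefficients of variation ranged from 1.06% for Birc6 to 12.9% for Bok, with a median of 3.68%. By level the medians were 10.8%, 4.25% and 2.14% for members of 1 to 10, 10 to 100 and 100 to 1000 FPKM, against 9.37%, 4.05% and 2.16% for all detected genes. A chi-square test of the recovered reads against the library totals, with Benjamini-Hochberg adjustment over 9120 genes of at least 30 reads, called 99 genes (1.09%) and none of the 29 members tested. Of the members, 2 had an unadjusted p under 0.05, as had 11.4% of all genes tested. They were Pdcd4, highest in aliquot 1 (adjusted chi-square p = 0.12), and Bcl2l1, lowest in aliquot 1 (adjusted p = 0.29). Reads of amplified cDNA are not independent molecules, so the test covers counting error only.

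**Figure D4:**
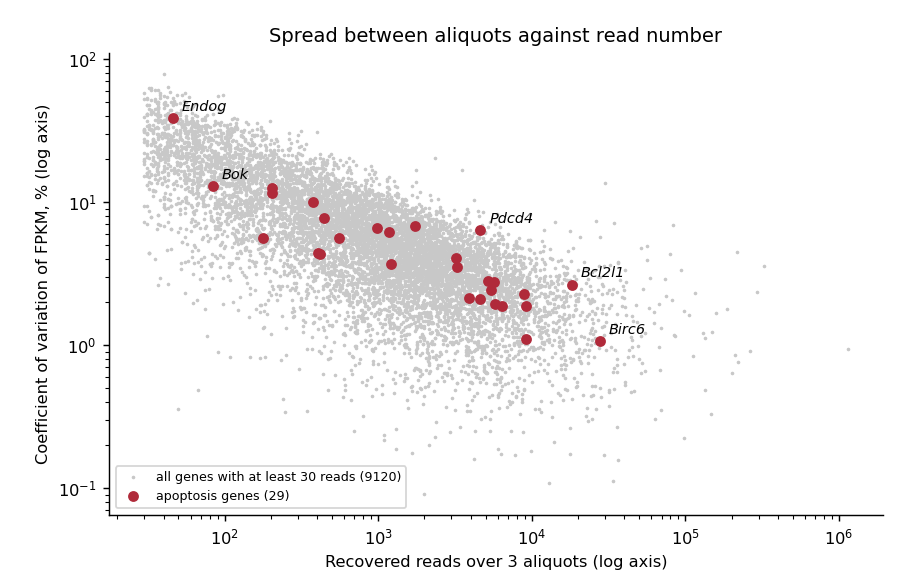
Coefficient of variation of FPKM over the 3 aliquots against recovered reads (both axes logarithmic) for the 29 apoptosis genes (red) and all 9120 genes with at least 30 reads (grey). The apoptosis genes lie within the cloud at every depth, from Endog with 46 reads to Birc6 with 27805.

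Other genes of the same pathways were taken from 8 lists by textbook role. Of 89 genes, 87 were matched and 58 of them were detected (66.7%, against 36.4% of protein-coding rows), with 19 listed at 0 and a median of 9.48 FPKM. Among 9 genes of execution 6 were detected, led by the kinase Rock1, a caspase substrate, with 215 ± 7.20 FPKM, and by Acin1 with 60.2 ± 3.73 FPKM. Dffa, the inhibitor of the apoptotic nuclease, had 1.005, 1.007 and 0.777 FPKM, and Casp14 and the lamin Lmnb1 were listed at 0.

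Of 11 genes listed for the mitochondrial step of cell death, not all of them for mitochondrial proteins, 10 were detected. The nucleotide carrier Slc25a5 led with 827 ± 3.69 FPKM (a gene with processed copies that reads may be confused with). Bcap31 followed with 339.5 ± 4.33 FPKM and Mtch2, a receptor for BID, with 212 ± 1.17 FPKM. The lowest were Vdac1 (73.4 ± 2.62 FPKM) and the fission gene Dnm1l (43.5 ± 0.637 FPKM), with Ppif listed at 0. Channel and carrier genes of the mitochondrion were thus detected while Bax and Bak1 were listed at 0. Further relatives of the Bcl2 family and the BAG cochaperones were detected for 6 of 11, led by the autophagy gene Becn1 (32.3 ± 0.914 FPKM), Bag1 (13.4 ± 0.545 FPKM) and Bag4 (11.3 ± 0.548 FPKM), while Bcl2l10, Bcl2l14, Bcl2l15 and Moap1 were listed at 0.

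The list for death receptors holds receptors together with adaptors and other genes linked to them, and 8 of its 12 genes were detected. It was led by the TNF receptor Tnfrsf1a with 92.4 ± 2.54 FPKM, Fas with 41.6 ± 2.22 FPKM and the kinase Ripk1 with 17.9 ± 1.51 FPKM. The adaptor Tradd and the receptor Tnfrsf25 were listed at 0, and Tnfrsf21 had 1 aliquot above 0 (0.0302 FPKM). For the other forms of cell death, 4 of 10 genes were detected (40%, near the 36.4% of protein-coding rows). They were the necroptosis genes Mlkl (40.1 ± 0.704 FPKM) and Ripk3 (39.6 ± 2.05 FPKM), and the gasdermins Gsdme (19.5 ± 0.964 FPKM) and Gsdmd (7.79 ± 1.44 FPKM, named after its value was seen). The inflammasome genes Nlrp3, Pycard and Aim2, Il1b and the sensor Zbp1 were listed at 0, as was Casp1.

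Of 14 p53 targets 7 were detected. Trp53inp1 had 54.3 ± 2.36 FPKM, Btg2 22.8 ± 0.356 FPKM and the ribonucleotide reductase subunit Rrm2b 17.3 ± 0.330 FPKM, while Eda2r, Gdf15, Ei24 and Perp were listed at 0. The cell cycle inhibitor Cdkn1a, named after its value was seen, had 2.57 ± 0.244 FPKM. Survival kinases and the factors they control were detected for 11 of 12, led by the kinase Sgk1 with 814 ± 20.2 FPKM, Pdpk1 with 115 ± 2.04 FPKM and the regulatory subunit Pik3r1 with 72.7 ± 0.642 FPKM. The catalytic subunit Pik3cb was listed at 0, and Pim1 had 2.27 ± 0.366 FPKM. Stress genes of the endoplasmic reticulum were detected for 6 of 8, led by the chaperone Hspa5 (309 ± 4.82 FPKM), Xbp1 (72.6 ± 0.918 FPKM) and Atf4 (33.7 ± 0.234 FPKM). The death-linked factor Ddit3 (CHOP) had 10.6 ± 1.31 FPKM, Ern1 0.408 ± 0.170 FPKM and Trib3 0.0575 ± 0.0996 FPKM.

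**Figure D5:**
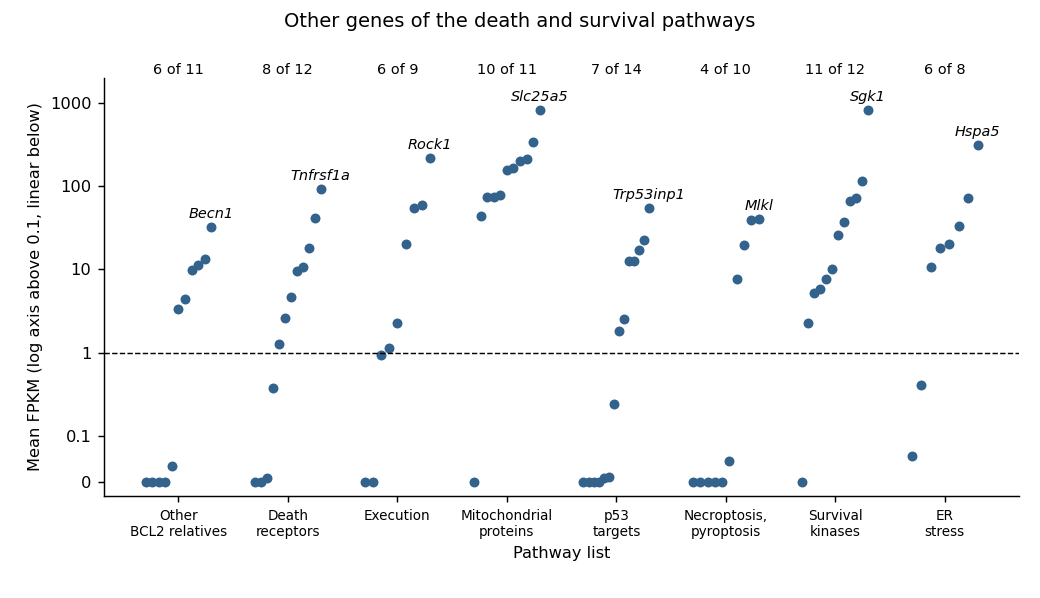
Mean FPKM over the 3 aliquots of each matched gene in 8 pathway lists (vertical axis logarithmic above 0.1, linear below; dashed line at 1 FPKM), with the number detected in every aliquot above each list and its highest gene named. Slc25a5 and Sgk1 stand highest. The list of necroptosis and pyroptosis genes has the smallest share detected (4 of 10, or 40%), near the 36.4% of protein-coding rows.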

How the data were processed

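RNA sequencing libraries of 3 aliquots of 1 cDNA pool were analysed from 1 table. The FPKM values were deposited by the authors. The submitters' processing notes name TopHat2 2.0.12, HTSeq 0.6.1 and GRCm38, while counting settings, annotation and the definition of gene length are not stated. Symbols were assigned to 37607 of 39304 rows from the reference's name table, with coordinates and lengths of transcripts from GENCODE M21 (GRCm38), perhaps not the release used.

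Low FPKM values step by what 1 read is worth. The total of each library was set by the most frequent such step under 0.5 FPKM, assuming the mean transcript length. For each gene the smallest whole length giving whole reads within 0.0001 in all aliquots was used, or its multiple within 1 base of the mean transcript length (374 genes). All 11142 genes above 0 were solved. They add up to 96.7% of each total. A gene's reads can still be too low by a whole factor, which leaves FPKM as deposited but shortens the implied length and lowers the levels rescaled to the longest transcript. Reads that are too low also lower the chi-square value, so the test of spread is less likely to call such a gene.

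Detection meant at least 1 FPKM in every aliquot. Ratios were taken within each aliquot on FPKM with no pseudocount. Spread was tested by chi-square with Benjamini-Hochberg adjustment at 0.05, checked on simulated data. Members, role groups, pairs and lists were chosen with earlier results of these data known. All members are named, and from each pathway list up to 3 of the highest and 3 of the lowest genes. A few genes that this rule names are not reported here, though counts include them. Alternatives were other detection limits, pseudocounts, medians, other lengths, read minimums, and leaving out the highest members or each aliquot. Python 3.11.15 with scipy 1.17.1 was used.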

Additional observations from a re-analysis of the deposited data

How the results depend on the processing

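No paired analysis was possible because there is only 1 group. The members' count of 27 and the 58 detected pathway genes stayed within 1.5 times under other detection limits, lengths and without each aliquot. All 66 alternative values of the 11 pair ratios kept their direction. The balance values of the 4 set comparisons kept their direction and, without each aliquot, moved by less than the spread between aliquots. As medians with 1 FPKM added, the log2 ratio of survival genes was 0.86 to effectors, 0.65 to BH3-only genes and 0.72 to both, and that of inhibitors to apoptotic caspases 4.09. The medians behind the survival ratios lie below the detection limit, at 0.812 FPKM for survival genes, 0 for effectors and 0.159 FPKM for BH3-only genes. With members under 0.1 FPKM also left out, the 4 log2 ratios were 3.13, 3.68, 3.38 and 4.68, and of these the third moved by less than the spread between aliquots. Without the highest member of each list they were 2.27 to BH3-only genes, 2.02 to both and 5.37 for inhibitors. With effectors that setting left no reads and gave no value. With lengths of the longest transcript they were 7.14, 4.44, 4.23 and 3.39 in the order first given. Beyond that 1 value, each of these differed from the value first given by more than that spread. The cause of these moves beyond the altered setting was not tested. The count of 99 genes beyond sampling noise was 2 without aliquot 1, 98 without aliquot 2 and 65 without aliquot 3. It was 99 at a minimum of 10 reads, 102 at 100 reads and 106 with mitochondrial genes left out of the read totals, and no member was called under any of these 6 settings. Fewer than about 30 reads, as for Bik, Bbc3, Bcl2l11, Bcl2l2, Casp2 and Birc5, leave a level uncertain. A count of 3 reads is 0.328, 0.288 and 0.273 reads per 1000000 in aliquots 1, 2 and 3.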
